A study of Homo sapiens with 12 samples.

Results

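The BCL2 family decides whether the outer mitochondrial membrane stays closed or is opened to start apoptosis. The 10 members followed here in T24 cells were the anti-apoptotic BCL2A1, BCL2, BCL2L1 and MCL1, the pore-forming effectors BAX and BAK1, and the BH3-only members BID, BCL2L11, BBC3 and PMAIP1. They were chosen by gene name, 10 of the 60504 genes listed, with earlier results of these data known. Anti-apoptotic members hold BAX and BAK1 in check, BH3-only members bind and neutralise the anti-apoptotic ones or activate the effectors, and once freed BAX and BAK1 let cytochrome c out to activate caspases. The proteins made from MCL1 and PMAIP1 are short-lived, and BCL2A1 is known as a target of NF-kappa B.

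The 12 libraries were of RNA from T24, a line established from human bladder cancer. For the knockout comparison there were 2 libraries labelled U11 knockout (U1 and U2) and 2 untreated ones (T1 and T2). The overexpression comparison set 6 libraries labelled U11 overexpression, with the line labels 79, 86 and 87 and 2 libraries each, against 2 untreated libraries (T24P3 and T24-4). U11 is the small nuclear RNA of the minor spliceosome that recognises the start of U12-type introns. According to the methods, the knockout was a monoclonal line made with CRISPR/Cas9 and a pair of guides in pX330, and overexpression came from the plasmid pcDNA-U11 with monoclonal selection. What the line labels stand for is not explained, and nothing states that the libraries of a group came from separate cultures, so p-values may measure only technical spread. Library names divide the overexpression comparison into series R17018 (T24P3, 79-1, 86-1 and 87-1) and series R18019 (T24-4, 79-3, 86-3 and 87-3), and all 4 libraries of the knockout comparison belong to series R18051.

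U11 went against the knockout label, with 21.4 and 23.8 TPM (Stringtie's transcript abundance, scaled for length and to the same total in each library) in T1 and T2 but 31.6 and 37.4 TPM in U1 and U2 (two-sided exact permutation test on the means, p = 0.333, the smallest that 2 against 2 allow). Every direction below for the libraries labelled U11 knockout rests on that label. Among the other 8 libraries U11 was at 0.03 and 0.62 TPM in T24P3 and T24-4, at 0.18 and 0.41 TPM in line label 79, at 3.98 and 3.72 TPM in line label 86, and at 61.9 and 53.6 TPM in line label 87 (two-sided exact permutation test on the means over all 6 libraries, p = 0.393, where 0.036 is the smallest possible). U11 in line label 79 thus lay within the range of the controls, and "overexpression" below stands for the label of the 6 libraries. All these U11 values are the sum of both U11 entries, ENSG00000270103 and ENSG00000274978. In the knockout comparison the sum equalled ENSG00000274978 alone. In the 6 overexpression libraries ENSG00000270103 reached 60.2 TPM and ENSG00000274978 at most 1.64 TPM. The U11 levels of the comparisons thus came mainly from different entries. The aligned bases behind the values were 13.7 to 15.2 gigabases a library for the knockout and 9.07 to 15.3 gigabases for the overexpression comparison. The 10 most abundant genes took 45.5% to 49.6% of all TPM in the former and 7.06% to 7.56% in the latter, so levels were not tested between the comparisons. Of 11 epithelial and urothelial markers, 7 reached 1 TPM, led by KRT7 at 1085 to 6703 TPM, and all 3 mesenchymal markers did. The uroplakin genes UPK1B, UPK2 and UPK3A and CDH1 did not.

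Differences were tested with limma on log2(TPM + 1). A gene was called at an unadjusted P under 0.05 with at least a 1.5-fold change, and the Benjamini-Hochberg adjusted P over all genes tested is given beside it. All 10 members reached 1 TPM in at least 2 libraries of each comparison and were tested. In the knockout comparison BCL2A1 did so through T1 and T2 alone, the group in which it was higher. Between libraries labelled U11 knockout and controls, 2 members were called higher (MCL1 and PMAIP1) and 1 lower (BCL2A1), where 8.61% of the 14356 genes tested were called higher and 3.15% lower. These were 1236 genes higher and 452 lower, and with median ratio scaling 773 higher and 775 lower. Markers of cell state also differed in this comparison. Of 3 mesenchymal markers tested 2 were called higher, FN1, the fibronectin gene, with 973 ± 58.0 TPM in T1 and T2 against 3150 ± 598 TPM in U1 and U2 (SD, n = 2 each, log2 fold change 1.68, adjusted P = 0.0124 by limma) and VIM with 1282 against 2175 TPM (0.76, adjusted P = 0.0144 by limma). Of 6 epithelial and urothelial markers tested, KRT19 was called lower, from 154 to 91.6 TPM (-0.74, adjusted P = 0.0194 by limma), and GATA3 higher, from 2.65 to 5.14 TPM (0.75, adjusted P = 0.0553 by limma). EPCAM, under the filter, stood at 0.82 and 1.23 TPM in T1 and T2 and at 0.15 and 0.09 TPM in U1 and U2. The part of these marker differences in those of the members was not tested. With overexpression 1 member, BCL2A1, was called higher, where 0.767% of the 15768 genes tested were called higher, and no member was among the 1.16% called lower.

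**Figure D1:**
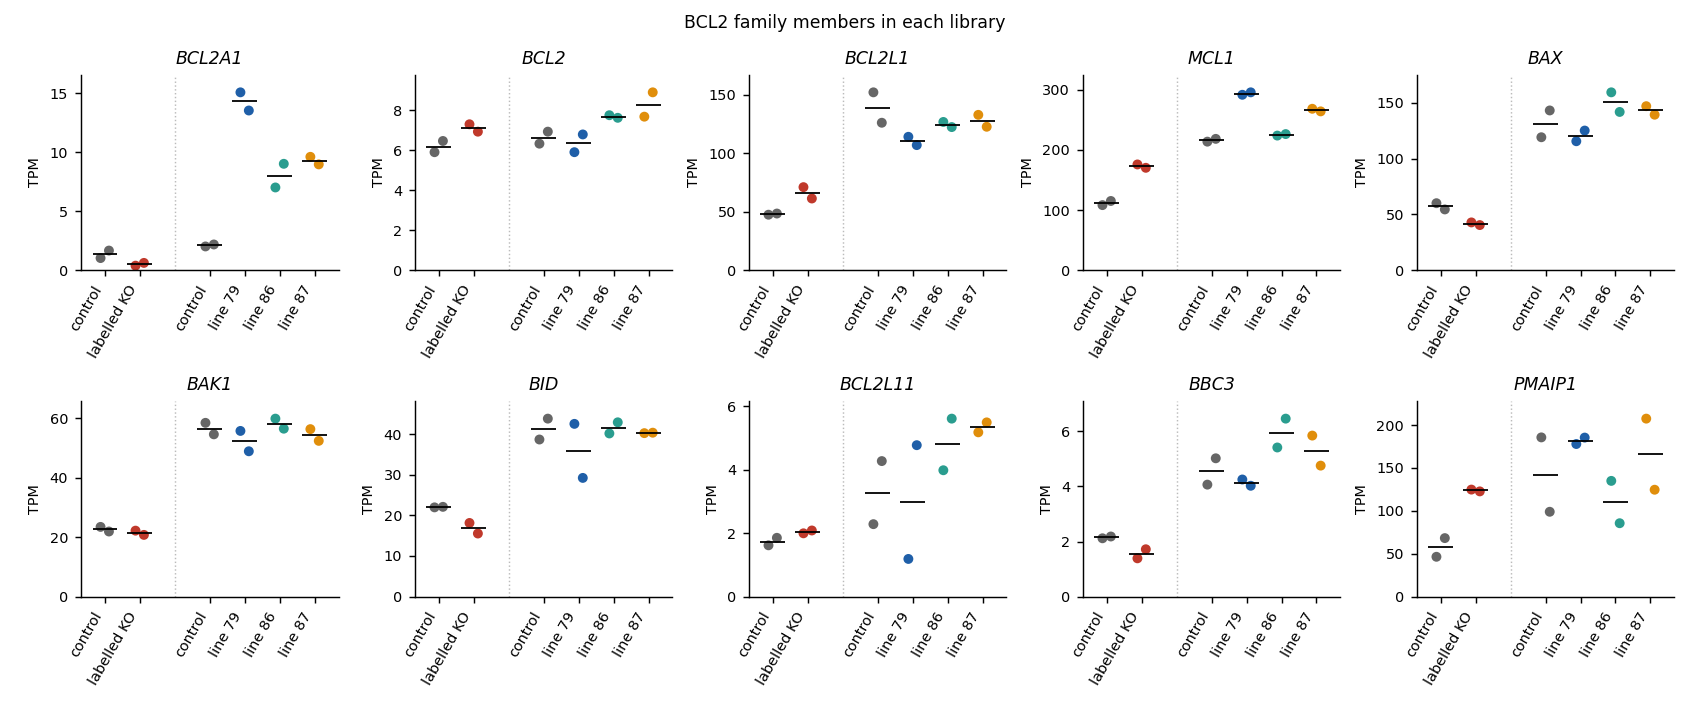
TPM of each member (vertical axis, from 0) in each of the 12 libraries (points), with the mean of each pair of libraries as a line; "labelled KO" stands for the libraries labelled U11 knockout, and the dotted line divides the knockout comparison (left) from the overexpression comparison (right). BCL2A1 is low in all 4 controls and at 7.01 TPM or more in all 6 overexpression libraries, and the pairs of MCL1 values lie close together within each line label.

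BCL2A1, an anti-apoptotic member best known from blood cells and from NF-kappa B signalling, lies at positions 79960889 to 79971446 of chromosome 15 (hg38, minus strand, ENSG00000140379), with no overlapping gene in the deposited tables. PMAIP1, which encodes the BH3-only protein NOXA, lies on chromosome 18 from 59899948 to 59904306 on the plus strand (ENSG00000141682). These genes had the largest differences among the members, so the 250 bases before their RefSeq starts are shown, 5′ to 3′ on the gene's strand (GRCh38.p14, chr15:79971197-79971446 and chr18:59899746-59899995). Capitals mark every CpG and, in BCL2A1, the TATAAA motif.
BCL2A1: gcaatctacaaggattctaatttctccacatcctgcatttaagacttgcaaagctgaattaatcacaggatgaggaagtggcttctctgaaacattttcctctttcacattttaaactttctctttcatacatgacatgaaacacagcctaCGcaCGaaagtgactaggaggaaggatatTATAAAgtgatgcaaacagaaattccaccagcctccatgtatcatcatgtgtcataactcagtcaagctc
PMAIP1: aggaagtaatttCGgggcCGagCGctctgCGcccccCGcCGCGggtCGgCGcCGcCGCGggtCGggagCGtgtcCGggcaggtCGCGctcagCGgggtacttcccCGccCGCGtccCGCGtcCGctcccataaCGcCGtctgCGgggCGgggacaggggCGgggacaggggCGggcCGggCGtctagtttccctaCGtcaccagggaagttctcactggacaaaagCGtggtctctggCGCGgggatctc

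The BCL2A1 window was the most AT-rich of those of the members. Its GC content was 38.8%, at or above that of 11.4% of the 35116 promoter windows in the table, and it held 2 CpG. The PMAIP1 window had a GC content of 72.8% and 36 CpG. Over all promoter windows the medians were 58% and 11 CpG. The motif TATAAA, searched on both strands, was found in 10.7% of all windows and in windows of 2 members, at position -70 from the start in BCL2A1 and at -208 in one of the windows of BCL2L1. The kappa B consensus was in none of the 14 windows of the 9 members in the table and in 9.96% of all windows, which says only that these letters are not there. The deposited BCL2A1 entry reaches to the same last base as the window, so its start lies further upstream than the RefSeq start. MCL1 was not matched in the promoter table.

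BCL2A1 stood at 2.02 TPM in T24P3 and 2.19 TPM in T24-4. It stood at 15.1 and 13.5 TPM in line label 79, at 7.01 and 9.02 TPM in line label 86, and at 9.61 and 8.97 TPM in line label 87. All 6 overexpression libraries were above both controls. The means were 10.5 ± 3.08 TPM (SD, n = 6) with overexpression and 2.10 ± 0.12 TPM (SD, n = 2) in controls, a ratio of 5.01. limma gave a log2 fold change of 1.85 (SE, the standard error, 0.25, adjusted P = 0.0283). That fit takes the 6 libraries as independent, which the 2 libraries of a line label may not be. With the mean of each line label as 1 value, the log2 fold change was 1.85 (unadjusted P = 0.000309 by limma). In that fit 7 of the 15768 genes tested had an adjusted P under 0.05, and BCL2A1 was not among them. Over the 10 alternatives the adjusted P by limma rose to as much as 0.201. Without line label 79, an alternative chosen after seeing the data, the mean was 8.65 ± 1.13 TPM (SD, n = 4) and the log2 fold change 1.63 (SE 0.14, adjusted P = 0.0205 by limma). In a bulk sample more BCL2A1 RNA per cell and more cells with BCL2A1 RNA cannot be told apart.

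The rise was seen within each library series. Against the control of its own series, the mean difference on the log2(TPM + 1) scale was 1.88 in R17018 and 1.83 in R18019. Genes of leukocytes, cells in which BCL2A1 is commonly expressed, were detected at low levels. Among the 7 leukocyte markers PTPRC, CD3E and LYZ, picked out after their values were seen, differed between the series. PTPRC, the pan-leukocyte CD45 gene, was at 0 in 3 of 4 libraries of R17018 and at 0.27 to 0.50 TPM in all 4 of R18019. LYZ, the lysozyme gene of myeloid cells, was at 0 in all 4 libraries of R17018 and at 1.55 to 1.68 TPM in all 4 of R18019, the control included. CD14, a monocyte gene, did not follow the series. It stood at 0.43 and 0.57 TPM in T24P3 and T24-4, at 1.18 and 0.87 TPM in line label 79, at 0.91 and 0.83 TPM in line label 86, and at 0.22 and 0.36 TPM in line label 87. Line label 79 had the most CD14 in each series, as it had the most BCL2A1, and line label 87 had less CD14 than the controls. SPI1 was at 0 in all 4 libraries of R17018 and at most 0.26 TPM in R18019, and MS4A1 was at most 0.019 TPM in all 8 libraries. The 7 leukocyte markers together summed to 0.27 to 1.18 TPM in R17018 and to 3.06 to 3.56 TPM in R18019. Their part in the difference in BCL2A1 was not tested.

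**Figure D2:**
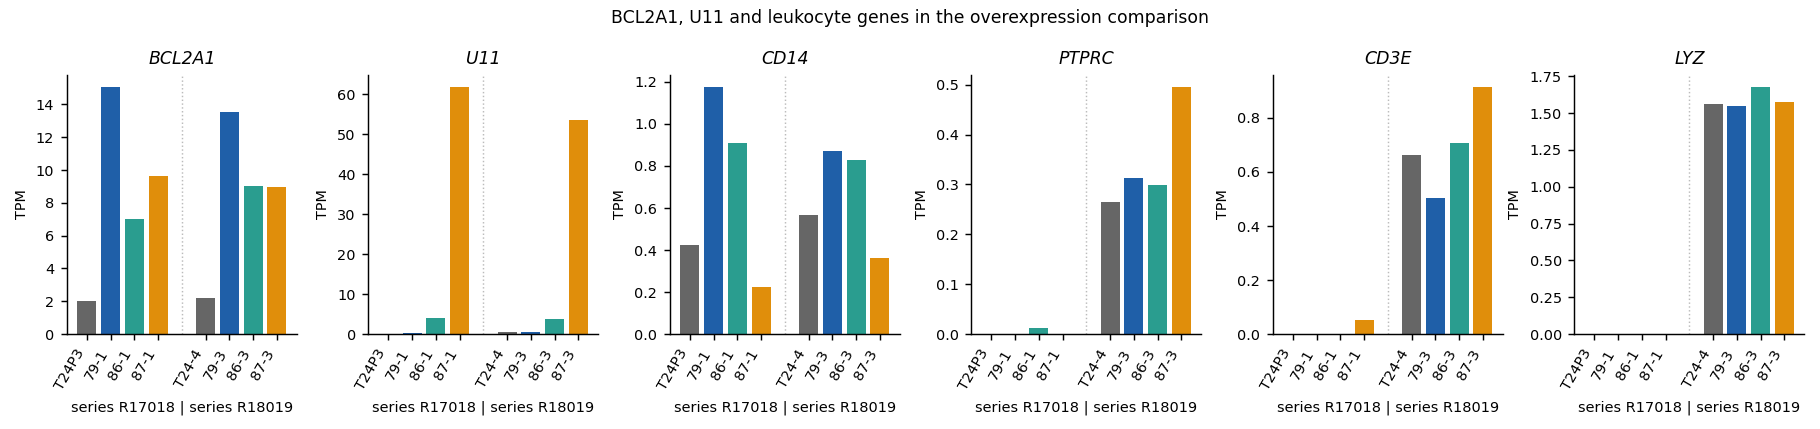
TPM (vertical axes, from 0, each panel with its own scale) of BCL2A1, U11 and the leukocyte genes CD14, PTPRC, CD3E and LYZ in the 8 libraries of the overexpression comparison, series R17018 left and R18019 right of the dotted line; grey bars are controls and blue, green and orange bars are line labels 79, 86 and 87. In both series BCL2A1 is lowest in the control and highest in line label 79, U11 is highest in line label 87, CD14 is highest in line label 79, and PTPRC, CD3E and LYZ are seen in series R18019, its control included.

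The line labels differed in BCL2A1. In an F test over the 3 line labels, 2 of the 10 members (BCL2A1 and MCL1) were called at an adjusted P under 0.05, where 16.0% of all genes tested were. For BCL2A1 the adjusted P was 0.0220 by limma, with the highest mean in line label 79 (14.3 ± 1.09 TPM, SD, n = 2). Line label 86 had 8.02 ± 1.42 TPM and line label 87 had 9.29 ± 0.45 TPM (SD, n = 2 each), and the values of these line labels overlapped. Without 79-1 or without 79-3 the F test called neither BCL2A1 nor MCL1, without either library of line label 86 it called BCL2A1 alone, and without either library of line label 87 MCL1 alone.

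Each line label was also set against the same 2 controls, so these comparisons share them. BCL2A1 was the only member called in each, where 7.95% of all genes were called in line label 79, 3.60% in line label 86 and 5.13% in line label 87. The log2 fold changes by limma were 2.30 in line label 79 (adjusted P = 0.000419), 1.53 in line label 86 (adjusted P = 0.00553) and 1.73 in line label 87 (adjusted P = 0.00189), each with a standard error of 0.13. U11 had another order, and the line label with the most BCL2A1 was the one whose U11 lay within the range of the controls. Any relation between U11 and BCL2A1 was not tested.

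In the knockout comparison BCL2A1 was near the limit of 1 TPM and passed the filter through T1 and T2 alone. It stood at 1.04 and 1.67 TPM in T1 and T2 and at 0.39 and 0.63 TPM in U1 and U2, with no overlap. Its mean was 2.65 times as high in the controls, and limma gave a log2 fold change of -0.63 (SE 0.19, adjusted P = 0.107), a scale that understates the difference of so low a gene (-1.24 with a pseudocount of 0.1 in place of 1). The call was lost with each of the 4 libraries left out: it was not called without U1 (-0.52) or without U2 (-0.74), and without T1 or without T2 it did not pass the filter. Without a filter on low values it was not called either, and in FPKM or with a filter of 1 TPM in every library it did not pass the filter.

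Among genes with a mean of at least 5 TPM, those whose log2(TPM + 1) followed BCL2A1 most closely over the 8 libraries of the overexpression comparison were ESM1, RASSF8, C9orf72, FUT8 and CDC42. Pearson's r was 0.99 for ESM1, an endothelial cell proteoglycan gene, and 0.96 to 0.97 for the other genes, over 11163 genes ranked. This is a description, since the libraries share line labels and controls. ESM1 stood at 15.2 and 16.2 TPM in T24P3 and T24-4 and at 48.1 to 74.4 TPM in the overexpression libraries.

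MCL1, an anti-apoptotic member that many tumour cells need to survive, had the highest TPM of the 10 members in all groups. It lies on chromosome 1 from 150574551 to 150579738 on the minus strand (ENSG00000143384) and overlaps ADAMTSL4-AS1 on the same strand. It stood at 108 and 115 TPM in T1 and T2 and at 176 and 170 TPM in U1 and U2. U1 and U2 each exceeded T1 and T2, and limma gave a log2 fold change of 0.63 (SE 0.08, adjusted P = 0.0246). The median of all genes tested was 0.11, so MCL1 was 0.52 above it. Its fold change sat just past the 1.5-fold limit. It dropped below it with FPKM (0.52), with median ratio scaling (0.48), with quantile normalization (0.57) and without T1 (0.58), and it stayed positive under all 8 alternatives and with each library left out.

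With overexpression MCL1 stood at 214 and 218 TPM in the controls, at 291 and 296 TPM in line label 79, at 224 and 226 TPM in line label 86 and at 268 and 264 TPM in line label 87. Every overexpression library was above both controls, those of line label 86 by little. Together with BCL2A1 this made 2 of 10 members with no overlap between the groups, where 9.87% of all genes had none. Over all 6 libraries limma gave a log2 fold change of 0.27 (SE 0.12, adjusted P = 0.851), and MCL1 was not called. The line labels differed, with an adjusted P of 0.0111 in limma's F test. Against the shared controls the log2 fold change was 0.44 in line label 79 (adjusted P = 0.00531), 0.06 in line label 86 (adjusted P = 0.707) and 0.30 in line label 87 (adjusted P = 0.0369) by limma, all under 1.5-fold. Over 8 alternatives limma's adjusted P ran from 0.00449 to 0.0174 in line label 79 and from 0.0254 to 0.0895 in line label 87. For BCL2A1 and for MCL1 line label 79 was the highest and line label 86 the lowest by the mean.

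BCL2L1 encodes BCL-XL (ENSG00000171552, chromosome 20, 31664452 to 31723989, minus strand). It stood at 47.6 and 48.6 TPM in T1 and T2 and at 71.1 and 61.4 TPM in U1 and U2, with no overlap. The log2 fold change by limma was 0.45 (SE 0.11, adjusted P = 0.0735), under the 1.5-fold limit. With overexpression its control values were 152 and 126 TPM and the 6 libraries ranged from 107 to 133 TPM with a median of 123, overlapping the controls. limma gave -0.20 (SE 0.10, adjusted P = 0.889). The lowest values, 114 and 107 TPM, were those of line label 79, where the log2 fold change was -0.32 (adjusted P = 0.109). Antisense genes overlap BCL2L1, among them ABALON, and whether the counting used strand is not given in the sources used here.

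BCL2, the founding member (ENSG00000171791, chromosome 18, 63123346 to 63320128, minus strand), was low. It stood at 5.90 and 6.46 TPM in T1 and T2 and at 7.29 and 6.92 TPM in U1 and U2, with a log2 fold change of 0.18 (limma, SE 0.12, adjusted P = 0.381). In the overexpression comparison the controls had 6.32 and 6.92 TPM and the 6 libraries 5.90 to 8.89 TPM with a median of 7.64, and the groups overlapped (0.14, adjusted P = 0.925 by limma). Other entries overlap BCL2, one of them on the same strand.

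**Figure D3:**
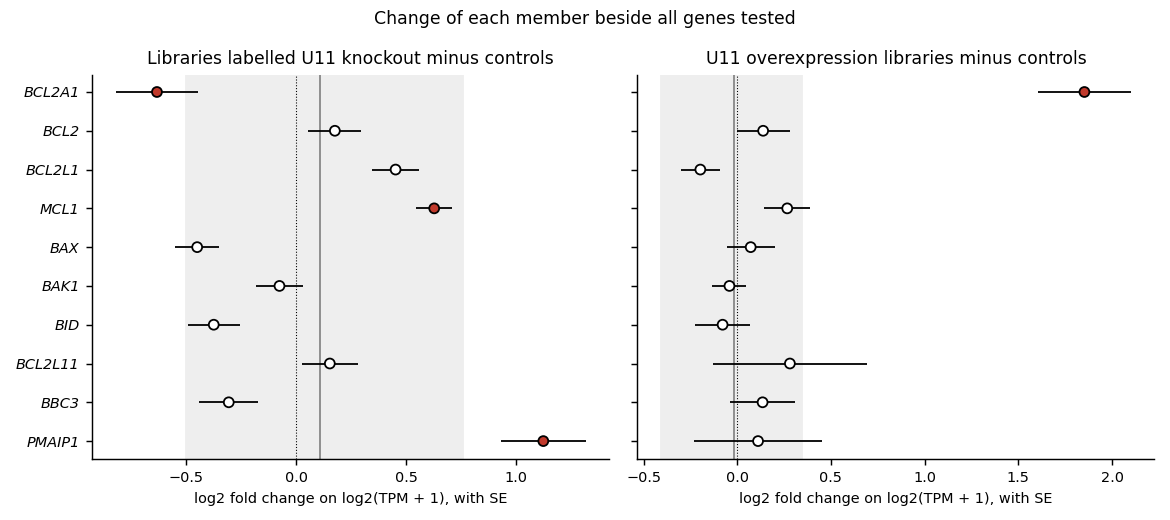
log2 fold change on log2(TPM + 1) of each member with its standard error (bars), libraries labelled U11 knockout minus controls (left) and overexpression libraries minus controls (right); filled points were called, the grey band holds the middle 90% of all genes tested and the grey line is their median. PMAIP1 (1.12) and BCL2A1 (-0.63) lie outside the band on the left, and BCL2A1 (1.85) is the one member outside it on the right.

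Of the effectors, BAX (ENSG00000087088, chromosome 19, 48954815 to 48961798, plus strand) stood at 60.1 and 54.5 TPM in T1 and T2 and at 42.9 and 40.5 TPM in U1 and U2. Both libraries labelled U11 knockout were below both controls, and the log2 fold change by limma was -0.45 (SE 0.10, adjusted P = 0.0641), under the 1.5-fold limit. Against the median of all genes tested it was -0.56, and with median ratio scaling (-0.60) BAX was called lower. BAK1 (ENSG00000030110, chromosome 6, 33572547 to 33580293, minus strand) had 23.4 and 21.9 TPM in T1 and T2 and 22.2 and 20.7 TPM in U1 and U2. The groups overlapped for BAK1 (-0.07, SE 0.10, adjusted P = 0.671 by limma). It was the one member that overlapped in this comparison, in which 60.2% of all genes tested did not overlap, so the 9 members without overlap stand against a high background.

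With overexpression BAX stood at 119 and 143 TPM in T24P3 and T24-4 and at 116 to 159 TPM in the 6 libraries, with a median of 141. BAK1 stood at 58.4 and 54.5 TPM in T24P3 and T24-4 and at 48.8 to 59.8 TPM in the 6 libraries, with a median of 56.0. Neither differed beyond the spread between libraries, with log2 fold changes of 0.07 (BAX, SE 0.13, adjusted P = 0.960 by limma) and -0.04 (BAK1, SE 0.09, adjusted P = 0.972 by limma). For BAX the difference from the control was 0.22 in R17018 and -0.08 in R18019, so its sign depended on the series.

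Ratios between members are free of any scaling of the library. The TPM of the 4 anti-apoptotic members, summed and divided by that of BAX and BAK1, was 1.95 and 2.25 in T1 and T2 and 3.91 and 3.90 in U1 and U2. MCL1 to BAX was 1.80 and 2.11 in T1 and T2 and 4.10 and 4.20 in U1 and U2. BCL2L1 to BAX was 0.79 and 0.89 in T1 and T2 and 1.66 and 1.52 in U1 and U2. In each of these ratios U1 and U2 exceeded T1 and T2, an order that follows from the values of the members above. BAX is in the denominator of each. The summed TPM of the 4 BH3-only members was also higher, with 72.1 and 94.3 TPM in T1 and T2 and 146 and 142 TPM in U1 and U2. The ratios are descriptions with no test. In the overexpression comparison the first ratio was 2.11 and 1.79 in the controls, 2.49 and 2.43 in line label 79, 1.67 and 1.84 in line label 86, and 2.06 and 2.11 in line label 87. Line label 79 lay above both controls and the other two line labels within or near their range.

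BCL2A1 made up little of the anti-apoptotic RNA even where it was highest. Its share of the anti-apoptotic sum was 0.64% and 0.97% in T1 and T2, 0.15% and 0.26% in U1 and U2, 0.54% and 0.62% in the overexpression controls, and 1.92% to 3.53% in the overexpression libraries. MCL1 was 19.3 to 31.9 times as abundant as BCL2A1 in the overexpression libraries and 99.7 and 106 times as abundant in their controls.

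**Figure D4:**
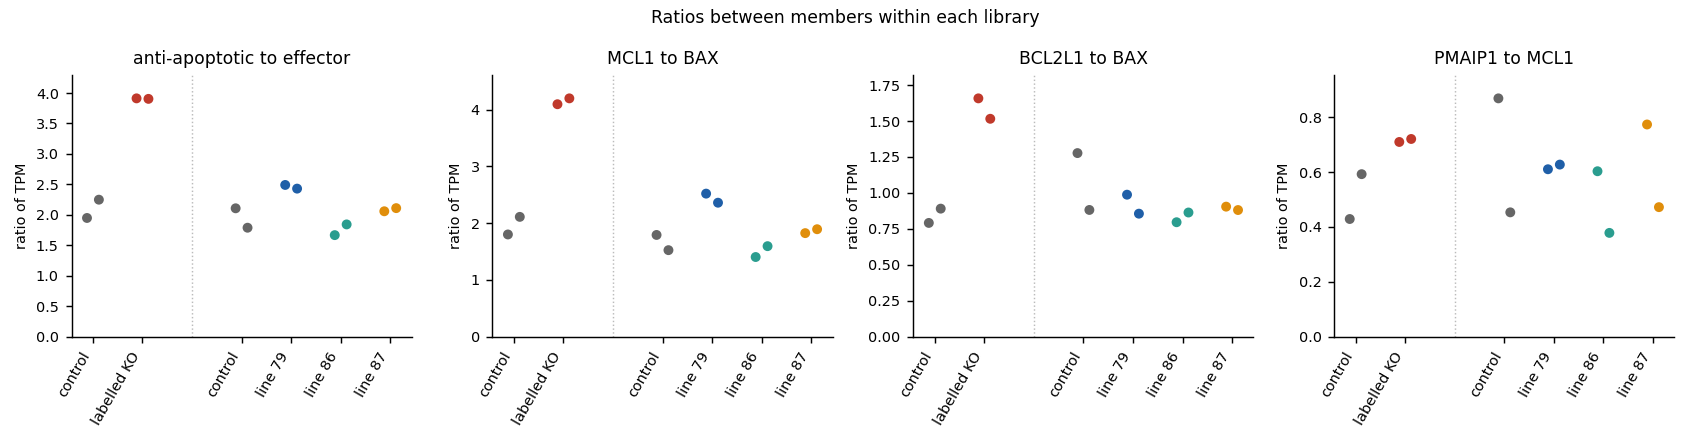
Ratios of TPM between members within each library (vertical axes, from 0): anti-apoptotic sum to effector sum, MCL1 to BAX, BCL2L1 to BAX and PMAIP1 to MCL1; points are libraries, "labelled KO" are the libraries labelled U11 knockout, and the dotted line divides the comparisons. The first 3 ratios are higher in U1 and U2 (3.91 and 3.90 for the first) than in T1 and T2 (1.95 and 2.25), and line label 79 has the highest MCL1 to BAX ratios of the overexpression comparison.

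Of the BH3-only members, PMAIP1 had the largest difference in the knockout comparison. NOXA, its product, binds MCL1 with preference. PMAIP1 stood at 46.4 and 68.2 TPM in T1 and T2 and at 125 and 123 TPM in U1 and U2. The groups did not overlap, and the means were 57.3 ± 15.4 TPM and 124 ± 1.48 TPM (SD, n = 2 each). limma gave a log2 fold change of 1.12 (SE 0.19, adjusted P = 0.0410), 1.01 above the median of all genes tested. PMAIP1 was called, at the unadjusted P, in all 8 other settings (0.97 to 1.13, adjusted P from 0.0338 to 0.329 by limma). With each library left out its log2 fold change was 0.85 to 1.39. The ratio of PMAIP1 to MCL1, both called higher, was 0.43 and 0.59 in T1 and T2 and 0.71 and 0.72 in U1 and U2.

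In the overexpression comparison PMAIP1 was not called, and its values spread widely within most groups. The controls had 186 TPM in R17018 and 98.9 TPM in R18019. Line label 86 had 135 and 85.6 TPM and line label 87 had 207 and 125 TPM in the same order, while line label 79 had 178 and 185 TPM. PMAIP1 was thus lower in R18019 in 3 of 4 pairs. The log2 fold change with overexpression was 0.11 (limma, SE 0.34, adjusted P = 0.982), with -0.12 within R17018 and 0.34 within R18019.

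BBC3 (ENSG00000105327, chromosome 19, 47220822 to 47232766, minus strand) encodes PUMA, like PMAIP1 a known target of p53, and was lower in U1 and U2 without being called. It stood at 2.12 and 2.18 TPM in T1 and T2 and at 1.39 and 1.72 TPM in U1 and U2, with no overlap (-0.31, SE 0.13, adjusted P = 0.204 by limma). PMAIP1 to BBC3 was 21.9 and 31.3 in T1 and T2 and 89.7 and 71.3 in U1 and U2. With overexpression BBC3 had 4.07 and 5.02 TPM in the controls and 4.02 to 6.46 TPM in the 6 libraries with a median of 5.09, and the groups overlapped.

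BID (ENSG00000015475, chromosome 22, 17734138 to 17774770, minus strand) links death receptors to mitochondria once caspase-8 has cut it. It stood at 22.0 and 22.1 TPM in T1 and T2 and at 18.1 and 15.5 TPM in U1 and U2. Both were below both controls, at a log2 fold change of -0.37 (limma, SE 0.12, adjusted P = 0.122), under the 1.5-fold limit. With overexpression the controls had 38.7 and 43.8 TPM. The 6 libraries had 29.2 to 42.9 TPM with a median of 40.2, and 79-3 had the lowest value.

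BCL2L11 (ENSG00000153094, chromosome 2, 111119378 to 111168447, plus strand) encodes BIM, which binds all the anti-apoptotic members. It stood at 1.62 and 1.85 TPM in T1 and T2 and at 1.99 and 2.08 TPM in U1 and U2 (0.15, SE 0.13, adjusted P = 0.464 by limma). In the overexpression comparison it was higher in series R18019 than in R17018 in all 4 pairs. The controls had 2.28 and 4.27 TPM, line label 79 had 1.19 and 4.77 TPM, line label 86 had 3.98 and 5.60 TPM and line label 87 had 5.17 and 5.49 TPM, with R17018 first. The log2 fold change was 0.28 (limma, SE 0.41, adjusted P = 0.948). BCL2L1 and BAK1 were lower in R18019 in all 4 pairs.

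**Figure D5:**
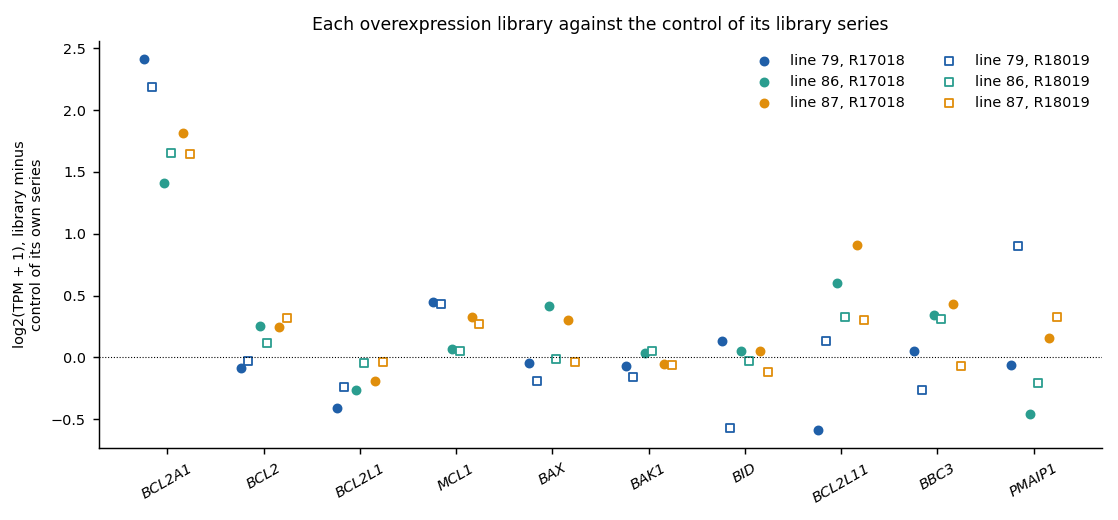
Difference on the log2(TPM + 1) scale between each overexpression library and the control of its own library series (vertical axis) for each member (horizontal axis), filled circles for R17018, open squares for R18019, blue, green and orange for line labels 79, 86 and 87. BCL2A1 lies between 1.41 and 2.41 in all 6 libraries, MCL1 is positive in all 6, and PMAIP1 lies on both sides of 0.

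None of the 101 annotated introns of the 10 members begins with either of the U12-type 5′ splice site motifs searched, ATATCCTT and GTATCCTT, against 809 of 402166 introns in the annotation. None of the 656 introns of the other apoptosis genes did. A U12-type intron with other first bases would not be found in this way.

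Of 43 other apoptosis genes listed beside the members, 36 were tested in the knockout comparison, 2 were called higher and 2 lower. Their median log2 fold change was 0.07, beside 0.11 for all genes. FAS, a death receptor, stood at 3.15 and 6.38 TPM in T1 and T2 and at 10.6 and 9.45 TPM in U1 and U2 (0.99, adjusted P = 0.107 by limma). TNFRSF1A, the main TNF receptor, stood at 37.6 and 34.9 TPM in T1 and T2 and at 63.1 and 47.8 TPM in U1 and U2 (0.59, adjusted P = 0.0893 by limma). The genes called lower were BIRC3, an inhibitor of apoptosis and another known NF-kappa B target (-0.69, adjusted P = 0.160 by limma), and XAF1, an antagonist of XIAP (-0.78, adjusted P = 0.0572 by limma). XAF1 passed the filter through T1 and T2 alone (1.30 and 1.81 TPM, beside 0.59 and 0.38 TPM in U1 and U2). None of the 9 other BCL2 family members tested was called, nor any of the 9 caspase and apoptosome genes. The most abundant of these were BNIP3 (35.1 to 144 TPM over the 12 libraries) and CYCS, the cytochrome c gene (36.0 to 113 TPM).

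With overexpression 37 of the 43 genes were tested, 1 was called higher and 1 lower, and their median was -0.02, as for all genes. XAF1 stood at 4.08 and 4.94 TPM in T24P3 and T24-4 and at 0.04 to 0.73 TPM in the 6 overexpression libraries, with a log2 fold change of -1.93 (limma, SE 0.22, adjusted P = 0.0140). XAF1 passed the filter through these controls alone, since no overexpression library reached 1 TPM. TNFRSF10D, a decoy receptor for TRAIL, stood at 15.0 and 15.6 TPM in T24P3 and T24-4 and at 19.7 to 30.4 TPM in the 6 libraries (0.62, adjusted P = 0.469 by limma). BIRC3 was not called in this comparison (-0.53, SE 0.44, adjusted P = 0.920 by limma).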

How the data were processed

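The authors aligned reads to hg38 with Hisat2 and ran Stringtie on each library. They deposited coverage (mean aligned bases per position), FPKM (fragments scaled for length and depth) and TPM for each gene. The study's methods name DESeq2 for differential genes, but the tables hold no counts, so it was not run. Aligned bases per library were estimated from the ratio of coverage to FPKM. TPM comes here without counts, so its counting error could not be modelled, and precision was judged from the spread between libraries. With 2 libraries in a group this spread is itself poorly known. The methods describe ribosomal RNA depletion, and versions of the upstream tools are not given in the sources used here.

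limma 3.58.1 in R 4.3.3 (lmFit, eBayes with a mean-variance trend, two-sided) was run on log2(TPM + 1) for genes that reached 1 TPM in 2 or more libraries compared. Benjamini-Hochberg adjustment was over all genes tested. Fold changes on this scale understate those of low genes. The line labels were compared in one fit of group means, with an F test. The fits were first tested on simulated data. Python 3.11.15, pandas 2.3.3, scipy 1.17.1 and matplotlib 3.10.9 were used. Coordinates are those of the deposited tables, introns were read from GENCODE and promoters from RefSeq. The kappa B consensus, a motif of 10 letters with ambiguous positions, was searched on both strands.

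The members and the lists of other apoptosis and marker genes were chosen with earlier results of these data known. All 10 members are named, with the other apoptosis genes called in either comparison or in a single line label against the controls. Up to 2 of the most abundant genes per list and the 5 genes most like BCL2A1 are named too. Groups came from the treatment in the sample labels, and line labels and library series from the sample names. The alternatives were a pseudocount of 0.1, FPKM, median ratio scaling, quantile normalization, other filters, no trend, replicate or series blocks, the mean of each line label, other thresholds and each library left out. Values within R17018, ratios between members, U11 by line label and the comparison with line labels 86 and 87 only were added after seeing the data.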

Additional observations from a re-analysis of the deposited data

Results flagged for a closer look

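Among the 6 overexpression libraries, 1 value stood far from the others in 2 of the 10 members. BID stood at 29.2 TPM in 79-3, while the other 5 libraries lay close together, and its gap to the nearest of them was 0.80 of the whole range. BCL2L11 stood at 1.19 TPM in 79-1, with a gap of 0.63 of the range. Both exceeded Dixon's 95% critical value of 0.625 for 6 values, a value that chance exceeds in about 1 in 20 groups. That rate is for independent values of 1 group, and these came from different line labels and library series. Only the 10 members were checked, so no share over all genes stands beside the count. BCL2L11 was lower in R17018, the series of 79-1, in all 4 pairs. Both libraries carry line label 79, in different library series, and in each case the other library of that line label lay with the rest.

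BCL2A1 (adjusted P = 0.0220, limma's F test) and MCL1 (adjusted P = 0.0111, limma's F test) differed between the line labels. Line label 79 had the highest mean of both, and for MCL1 line label 86 (224 and 226 TPM) and line label 87 (268 and 264 TPM) did not overlap either. With one library left out, both were called without either control, BCL2A1 alone without 86-1 or 86-3, MCL1 alone without 87-1 or 87-3, and neither without 79-1 or 79-3.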

How the results depend on the processing

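The number of members called in the knockout comparison was 3, but 1 with FPKM, 6 with no fold threshold and 1 to 2 with one library left out. BCL2A1 with overexpression was called under all 10 alternatives (log2 fold change 1.47 to 2.22, adjusted P from 0.0205 to 0.201, limma) and with each library left out (1.75 to 1.95, adjusted P from 0.0306 to 0.386, limma), and the number of members called stayed at 1. The F test over the line labels called 2 members, 1 with no filter and 0 to 2 with one library left out, and line label 79 against the controls 1 to 2. For the other apoptosis genes the count in the knockout comparison was 4, but 0 with the adjusted P, 2 with no filter, 15 with no fold threshold and 1 to 6 with one library left out. With overexpression it was 2, but 1 with FPKM, with the adjusted P with a filter of 1 TPM in every library or with line labels 86 and 87 only, 5 with no fold threshold and 1 to 4 with one library left out. In the overexpression comparison 5 members turned sign with one library left out: BAX without T24P3 (-0.060 to 0.20), BAK1 without T24P3 (-0.090 to 0.0066), BCL2L11 without T24P3 (-0.061 to 0.62), BID without T24-4 or 79-3 (-0.17 to 0.0094) and PMAIP1 without T24-4 (-0.34 to 0.56), the ranges being over the 8 libraries left out. With line labels 86 and 87 only PMAIP1 turned to -0.044. None of these members was called. The causes were not tested. The replicate numbers of the knockout comparison correlated in their deviations at 0.02, a single value since the second pair mirrors the first. The series correlated at 0.07 to 0.15 over 6 pairs (3 over 0.1). Neither was taken to pair libraries in the main fits, though some genes differed between the series. With the series as a block, 3074 genes in place of 2530 were called between line labels. With a replicate block 3 members were called in the knockout comparison, and with the series as a block 1 with overexpression and 2 between line labels. Where leaving out a library left 1 in a group, that library was assumed to vary like those of the other groups. BCL2A1 in the knockout comparison lay at 0.39 to 1.67 TPM, near the filter.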

Other observations

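Among the other apoptosis genes, 12 of the 37 tested differed between the 3 line labels at an adjusted P under 0.05 in limma's F test, where 16.0% of all genes tested did. This count was 1 to 5 with one library left out (4 without either control), 3 with no filter on low values, 7 with quantile normalization and 9 to 11 under the other alternatives. FAS, a death receptor, stood at 3.21 and 6.38 TPM in line label 79, at 17.2 and 15.0 TPM in line label 86 and at 18.2 and 10.5 TPM in line label 87, beside 15.8 and 19.6 TPM in the controls (adjusted P = 0.0332 by limma's F test). Line label 79, the one with the most BCL2A1 and MCL1, had the least FAS. BIRC3, an inhibitor of apoptosis, stood at 0.93 and 1.03 TPM in line label 79, at 2.31 and 2.41 TPM in line label 86, at 5.31 and 4.32 TPM in line label 87 and at 3.74 and 4.05 TPM in the controls (adjusted P = 0.00223 by limma's F test). TNFRSF10D, a decoy receptor for TRAIL, was highest in line label 79 at 29.3 and 30.4 TPM, and 19.7 and 20.9 TPM in line label 87 were the lowest values among the line labels (adjusted P = 0.0143 by limma's F test). These genes were named because they were called in the knockout or the overexpression comparison. Against the controls, 7 of the 37 were called in line label 79, 1 in line label 86 and 5 in line label 87. The shares over all genes were 7.95%, 3.60% and 5.13%. Not named above were BAD, CASP2 and BMF, lower in line label 79 (adjusted P = 0.0258, 0.0304 and 0.0966 by limma). In line label 87 BAD was lower and CASP10, CFLAR and CASP9 higher (adjusted P = 0.0425, 0.0814, 0.00597 and 0.0866 by limma). XAF1 was low in all 6 overexpression libraries, between 0.04 and 0.73 TPM, beside 4.08 and 4.94 TPM in the controls, and was called lower in each line label against the shared controls (log2 fold changes of -1.89, -2.13 and -1.77 in line labels 79, 86 and 87). It passed the filter through the controls alone.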
